A study of Mus musculus with 123 samples.

Results

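Whole lungs of BALB/c mice were compared 48 h after an ovalbumin challenge in a mouse model of allergic asthma. In this model, mice are sensitized to ovalbumin (OVA), a protein of egg white, and meet it again in a later challenge. The comparison rests on the arrays that the labels place at 48 h: 8 from OVA-sensitized mice and 7 from naive mice, 15 of the 123 arrays of a time course that runs from 0 to 168 h. Each array carries the number of its own animal, so the replicates are separate mice, and the replicate numbers used here are names that pair nothing. The design text states that naive mice were challenged with OVA too, whereas the titles of their arrays carry the word PBS, so an effect of sensitization and an effect of the challenge cannot be told apart here. The labels give no age, sex, adjuvant, dose or route. The question asked of these mice is which genes stood at another level in sensitized than in naive lungs at that time, and whether that difference was larger or smaller than at 0, 24 and 72 h.

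Allergic airway inflammation is driven by type 2 cytokines, which T helper cells and innate lymphoid cells release. IL-5 supports eosinophils, and IL-4 and IL-13 act through the transcription factor STAT6 on airway epithelium, where secretory cells turn into mucus-producing goblet cells, and on macrophages, which take up a repair-like programme. Chemokines made in the lung draw eosinophils, monocytes and T cells out of the blood, while B cells and plasma cells make antibody. In the airway wall, smooth muscle contracts and the matrix under the epithelium is remodelled.

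The values are log2 signals of a 3′ expression array, so 1 unit is a 2-fold change of signal. RNA of the whole organ was measured. Fewer cells of a type and less RNA per cell therefore cannot be told apart in any gene described here. Lung markers were high in all 15 mice: the surfactant protein gene Sftpc lay between 14.38 and 14.49, the club cell gene Scgb1a1 between 14.46 and 14.66, and the alveolar type I gene Ager between 14.06 and 14.32. Array medians lay between 9.35 and 9.43. Sensitized replicate 8 had high signals of tissues other than lung: its mean over 14 squamous epithelium genes was 11.80 against at most 7.53 in the other 14 mice, and its mean over 12 skeletal muscle genes was 11.98 against at most 7.24. The keratin gene Krt13 stood at 13.71 there and at most at 6.28 elsewhere, and the 5 genes with the largest SD among sensitized mice (Lce3f, Myh1, Krt13, Krtdap and 2310011E23Rik) were all highest in that mouse. Sensitized replicate 5 had the lowest mean of cardiac muscle genes, 8.35 against 10.13 or more in the others. Actin signal at the 3′ end less that at the 5′ end, a log2 measure that grows as RNA degrades, averaged 1.12 ± 0.177 (SD, n = 8) among sensitized mice. Among naive mice it was 1.09 ± 0.0524 (SD, n = 7), so the means were 0.0214 apart (two-sided exact permutation test, p = 0.78). It was highest in sensitized replicate 1, at 1.43, and lowest in sensitized replicate 5, at 0.835. Sensitized mice varied more from each other than naive mice did. The median SD over genes was 0.153 in sensitized and 0.114 in naive mice, and among the 16 groups of the time course it was higher in 2, the sensitized mice at 6 h (0.164) and the naive mice at 168 h (0.16). The tests below share 1 estimate of the spread per gene over all 16 groups. By the median SDs above, that understates the spread of the sensitized mice for a typical gene. In other genes it overstates the spread. Adamts4 had an SD of 0.146 among sensitized mice, with a limma adjusted p of 0.0121 over all arrays and 8.16e-09 in the 48 h arrays alone.

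Of 13053 genes tested with limma, 4579 (35.1%) passed an adjusted p of 0.05 at 48 h. Of the genes tested, 2216 (17%) were higher and 2363 (18.1%) were lower in sensitized lungs. Most of these differences were small, with a median size of 0.267 log2 units. Differences of at least 1 unit went mostly upward: 285 genes (2.18%) rose and 11 genes (0.0843%) fell by that much. The 2 groups of mice did not overlap at all in 1308 genes (10%), 781 of them (5.98%) with every sensitized mouse above every naive mouse and 527 (4.04%) with every sensitized mouse below. Higher genes made up 48.4% of the calls, and 34.2% after each array's median was subtracted. The median difference over all genes was -0.02. When the 48 h arrays were fitted alone, with 13 residual degrees of freedom, 3994 genes passed, 3630 of them shared with the fit over all arrays. Counts of list members are to be read against these shares, since a list with 17% of its members higher is at the background.

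**Figure D1:**
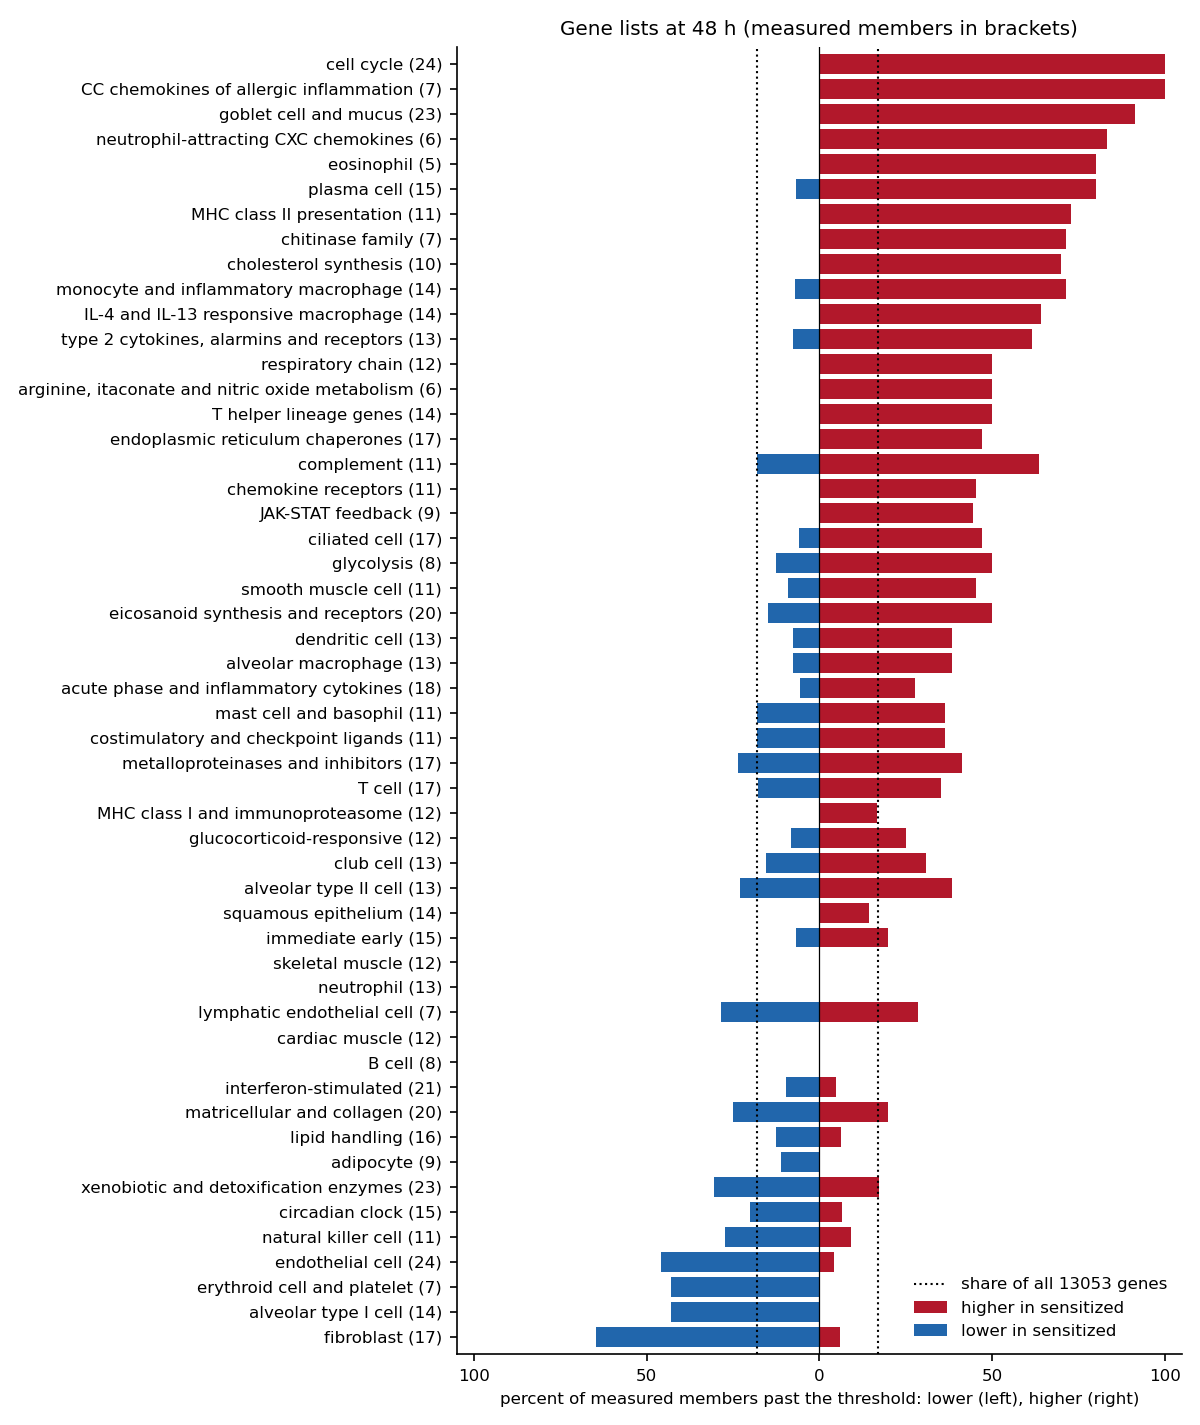
Share of the measured members of each gene list that passed an adjusted p of 0.05 (limma) at 48 h, in percent, for the 52 lists with at least 5 measured members. Red bars to the right are genes higher in sensitized mice, blue bars to the left are genes lower, the number in brackets is the count of measured members, and dotted lines mark the 17% and 18.1% of all genes. All 24 cell cycle genes lie to the right and 11 of 17 fibroblast genes to the left.

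Genes of mucus-producing cells were among those with the largest differences between the arms. The goblet cell and mucus list had 23 measured members, of which 21 rose and 2 did not pass, with a median difference of 2.38, and 17 separated the groups of mice completely. Clca1, a secreted protein of goblet cells, lay between 5.30 and 6.78 in naive mice (median 5.97) and between 13.99 and 14.34 in sensitized mice (median 14.24). The 8 sensitized mice stood close together near the top of the array's range, while the naive mice spread over more than a unit. The difference was 8.24 ± 0.60 (SE of the model, limma adjusted p = 2.87e-22). Slc26a4, an anion exchanger known as pendrin, stood between 13.31 and 13.81 in sensitized mice (median 13.63) and between 7.89 and 8.69 in naive mice (median 8.34), a difference of 5.25 ± 0.49 (adjusted p = 5.03e-16). Muc5ac, the gel-forming mucin of goblet cells, ranged from 9.94 to 12.30 (median 11.70) in sensitized and from 7.10 to 7.56 (median 7.34) in naive mice, a difference of 4.19 ± 0.32 (adjusted p = 1.97e-20). Its groups did not overlap, and the lowest sensitized mouse was replicate 5, which was also lowest in Clca1, Scin and Gcnt3. The airway mucin Muc5b, already present in naive lungs at a median of 10.18, rose by 2.41 ± 0.33. The actin-severing protein Scin rose by 5.24 ± 0.38, the mucin glycosyltransferase Gcnt3 by 4.97 ± 0.30, the protease Capn9 by 4.60 ± 0.35 and the ion transport regulator Fxyd4 by 4.53 ± 0.48. The IgG Fc binding protein Fcgbp and the disulfide isomerase Agr2, which helps fold mucins, rose by 3.63 ± 0.26 and 3.48 ± 0.42. The transcription factors Spdef and Foxa3, which direct goblet cell differentiation, rose by 1.92 ± 0.18 and 2.22 ± 0.19, in every sensitized mouse above every naive mouse. Bpifb1, a secreted protein of the upper airways, and the trefoil peptide Tff2 rose by 2.38 ± 0.46 and 2.41 ± 0.35. Outside the list, Retnlb, a resistin-like secreted protein, rose by 4.05 ± 0.38, and AA467197, a transcript with no named function, by 4.26 ± 0.45. The mean over the 23 goblet cell and mucus genes was 10.001 in sensitized replicate 5 and between 10.46 and 11.00 in the other sensitized mice, against 7.77 to 8.24 in naive mice.

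**Figure D2:**
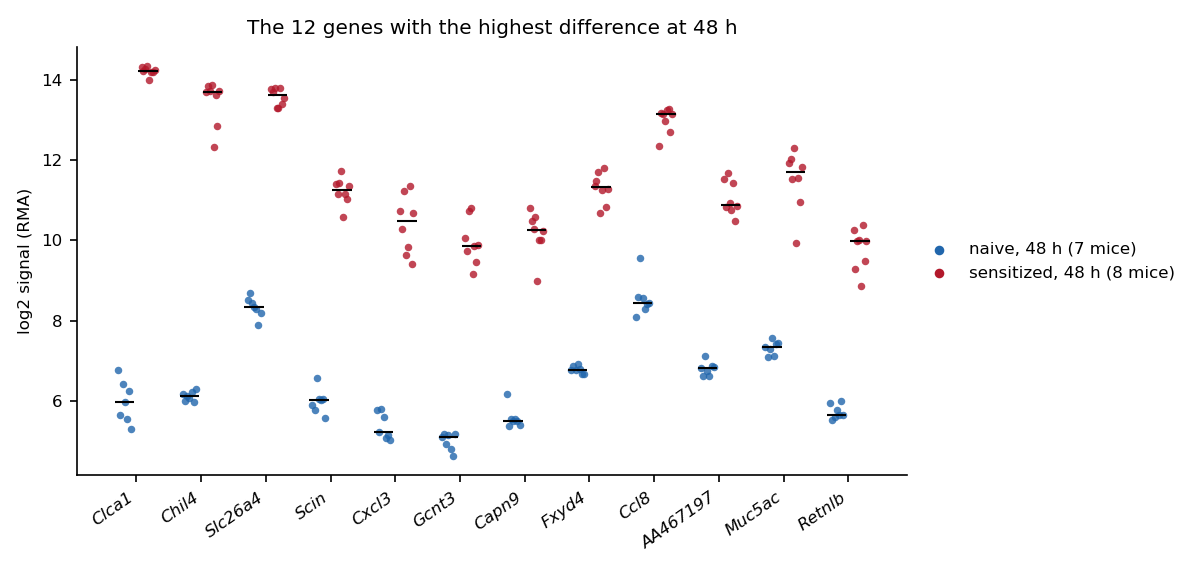
Log2 signal of the 12 genes with the highest difference at 48 h among the genes that passed. Each mouse is 1 dot, blue for the 7 naive and red for the 8 sensitized mice, with a black line at each median. The groups do not overlap in any of the 12 genes, and the sensitized mice of Clca1 lie between 13.99 and 14.34.

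Chitinase-like proteins rose with the mucus genes. Of 7 measured chitinase family genes, 5 rose and 2 did not pass (median difference 0.47). Chil4, a chitinase-like protein of airway epithelium and macrophages, lay between 5.97 and 6.30 (median 6.11) in naive and between 12.32 and 13.89 (median 13.71) in sensitized mice, a difference of 7.34 ± 0.68 (limma adjusted p = 3.98e-16). Every sensitized mouse was above every naive mouse by more than 6 units. Chil3, its near-identical neighbour, was high in all mice and rose by 1.96 ± 0.17 from a naive median of 12.34. Probes of the pair may share signal, so the split between them is uncertain. The active chitinase Chia1 rose by 1.95 ± 0.17 and Chil1 by 0.48 ± 0.058, while the macrophage chitinase Chit1 did not pass (difference 0.057 ± 0.19, adjusted p = 0.841).

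Most genes of type 2 cytokines and their receptors were higher in sensitized lungs. Of 13 measured cytokines, alarmins and receptors of type 2 immunity, 8 rose, 1 fell and 4 did not pass (median difference 0.45). Il13 lay between 7.81 and 8.38 (median 7.98) in sensitized and between 6.16 and 6.55 (median 6.41) in naive mice, a difference of 1.61 ± 0.33 (limma adjusted p = 6.69e-05). All 8 sensitized mice were above all naive mice. Il5 separated the groups too, at 5.89 to 6.54 (median 6.18) against 5.34 to 5.63 (median 5.49), a difference of 0.73 ± 0.30 (adjusted p = 0.045). Its call was close to the threshold and was lost when any of 12 mice was left out, while in the 48 h arrays alone its adjusted p was 1.72e-05. Il4 did not pass (difference 0.38 ± 0.38, adjusted p = 0.458), although 5 of 8 sensitized mice were above every naive mouse and the 48 h arrays alone gave an adjusted p of 0.00812. The regulatory cytokine Il10 rose by 1.02 ± 0.30 and Il13ra2, the decoy receptor of IL-13, by 1.54 ± 0.26. Il4ra, the signalling receptor chain for IL-4 and IL-13, differed by -0.076 ± 0.088 and did not pass. Of the epithelial alarmins, Il33 rose by 0.63 ± 0.16 from a naive median of 11.71. Tslp went the other way: it lay between 9.98 and 10.43 in sensitized mice (median 10.27) and between 10.52 and 10.92 in naive mice (median 10.80), a difference of -0.53 ± 0.10 (adjusted p = 1.84e-05). Every sensitized mouse was below every naive mouse in Tslp.

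Chemokines of allergic inflammation rose in all 7 measured members of the CC list, with a median difference of 1.75. Ccl8, a monocyte and T cell attractant, lay between 12.35 and 13.29 (median 13.16) in sensitized and between 8.09 and 9.55 (median 8.45) in naive mice, a difference of 4.44 ± 0.38 (limma adjusted p = 6.94e-18). Ccl11, eotaxin-1, which attracts eosinophils, ranged from 11.01 to 12.60 (median 11.83) against 8.66 to 9.10 (median 9.01), a difference of 2.85 ± 0.37 (adjusted p = 8.03e-10). Neither gene's groups overlapped. Ccl17 and Ccl22, ligands of the T helper 2 receptor CCR4, rose by 1.88 ± 0.34 and 1.75 ± 0.32. The second eotaxin, Ccl24, rose by 0.98 ± 0.35 (adjusted p = 0.0231), a call that was lost without sensitized replicate 6, its highest mouse (adjusted p = 0.0631). Among chemokine receptors 5 of 11 rose and 6 did not pass (median -0.006). The count was 2 without sensitized replicate 3 or 6, and 3 without naive replicate 7. Cxcr6, carried by activated T cells, rose by 1.15 ± 0.19.

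Ligands of the neutrophil receptor CXCR2 were higher in sensitized lungs, while no neutrophil gene passed in the fit over all arrays. Of 6 neutrophil-attracting CXC chemokines, 5 rose (median 2.44). Cxcl3 lay between 9.41 and 11.36 (median 10.47) in sensitized and between 5.02 and 5.78 (median 5.21) in naive mice, with no overlap, a difference of 5.02 ± 0.55 (limma adjusted p = 1.47e-12). Cxcl5, Cxcl1 and Cxcl2 rose by 3.72 ± 0.58, 2.47 ± 0.36 and 2.42 ± 0.46, and their groups did not overlap either. The platelet-derived Ppbp did not pass (-0.37 ± 0.21, adjusted p = 0.163). Of 13 measured neutrophil genes, 0 passed with limma in the fit over all arrays, 1 had an unadjusted p under 0.05, and 3 passed in the 48 h arrays alone, 1 higher and 2 lower. The median of their differences was -0.23. S100a8 and S100a9, the calgranulins that fill neutrophil cytoplasm, differed by -0.22 ± 0.25 and -0.24 ± 0.16. Of the interferon-inducible CXC chemokines, Cxcl9 and Cxcl10 rose by 1.91 ± 0.52 and 1.39 ± 0.44, while Cxcl11 passed only in other fits (adjusted p = 0.177 over all arrays and 0.000112 in the 48 h arrays alone). Naive replicate 3, at 8.16, overlapped the sensitized mice in Cxcl9.

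Eosinophil transcripts were higher on average and varied widely between the sensitized mice. Of 5 measured eosinophil genes, 4 rose (median 1.08). Prg2, the granule major basic protein, lay between 5.48 and 8.34 (median 6.63) in sensitized and between 5.44 and 5.85 (median 5.62) in naive mice, a difference of 1.08 ± 0.29 (limma adjusted p = 0.00226). Sensitized replicates 5 and 6 were highest, and 2 of the 8 sensitized mice lay within the naive range. Ccr3, the eotaxin receptor, ranged from 4.44 to 7.50 (median 5.72) against 4.53 to 5.16 (median 4.80), a difference of 1.09 ± 0.40 (adjusted p = 0.0274). In Ccr3, 7 sensitized mice were above and 1 was below all naive mice. Epx, eosinophil peroxidase, rose by 0.47 ± 0.19 (adjusted p = 0.0485) and the lipoxygenase Alox15, which macrophages make too, by 1.41 ± 0.58 (adjusted p = 0.0462). Siglecf, which alveolar macrophages share with eosinophils, differed by -0.049 ± 0.15 and did not pass. These calls rest on few mice: of the 4 genes, only Prg2 passed without sensitized replicate 5 or without sensitized replicate 6. The calls of Epx and Alox15 were lost when any of 10 and any of 12 mice, in turn, was left out. Without replicate 5 the adjusted p was 0.0151 for Prg2 and 0.0836 for Ccr3, and in the 48 h arrays alone that of Epx was 0.149.

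Part of the mast cell genes were higher, while the share that fell was near the background. Of 11 measured mast cell and basophil genes, 4 rose, 2 fell (1 in the 48 h arrays alone) and 5 did not pass (median 0.09). The mucosal mast cell proteases carried the largest differences. Mcpt1 lay between 5.75 and 8.81 (median 7.28) in sensitized and between 4.20 and 4.66 (median 4.33) in naive mice, a difference of 2.92 ± 0.34 (limma adjusted p = 7.95e-12). Its groups did not overlap, although sensitized mice spanned about 3 units. Mcpt2, which is close enough in sequence that the probes of the pair may share signal, rose by 2.99 ± 0.39. The tryptase Tpsab1 rose by 0.50 ± 0.14. Carboxypeptidase A3 (Cpa3), common to mast cells and basophils, and the basophil protease Mcpt8 did not pass (adjusted p = 0.738 and 0.678).

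**Figure D3:**
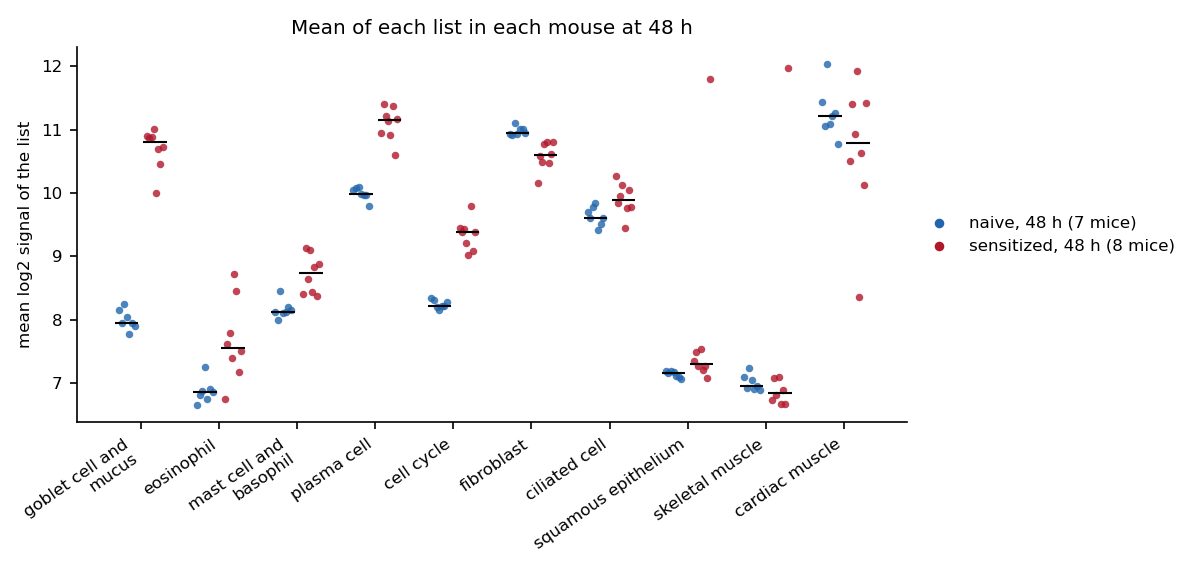
Mean log2 signal over the measured members of 10 gene lists in each mouse at 48 h, with blue dots for 7 naive and red dots for 8 sensitized mice and a black line at each median. Goblet cell, plasma cell and cell cycle means separate the groups. Sensitized replicate 8 stands alone at 11.80 and 11.98 in the squamous epithelium and skeletal muscle lists, and sensitized replicate 5 is lowest in the cardiac muscle list at 8.35.

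Macrophage genes were higher, among them genes that IL-4 and IL-13 induce. Of 14 measured genes of the IL-4 and IL-13 responsive macrophage, 9 rose and 5 did not pass (median 0.81). The well known markers Arg1 and Retnla were not analysed here. Cd209e, a C-type lectin, lay between 8.33 and 9.29 (median 8.95) in sensitized and between 4.74 and 5.30 (median 4.89) in naive mice, a difference of 3.90 ± 0.46 (limma adjusted p = 2.01e-11). Its 2 groups were more than 3 units apart. The checkpoint ligand Pdcd1lg2 rose by 1.81 ± 0.32, the cholesterol hydroxylase Ch25h by 1.80 ± 0.38, the transcription factor Egr2 by 1.43 ± 0.23 and the lectins Mgl2 and Mrc1 by 1.33 ± 0.21 and 0.59 ± 0.093. Of 14 monocyte and inflammatory macrophage genes, 10 rose and 1 fell (median 0.73). The complement component C1qa stood between 11.61 and 12.23 (median 12.02) in sensitized and between 10.27 and 10.78 (median 10.58) in naive mice, a difference of 1.39 ± 0.17 (adjusted p = 9.88e-11). Its partners C1qb and C1qc rose by 0.87 ± 0.12 and 1.35 ± 0.17, and the lipid-sensing receptor Trem2 by 1.34 ± 0.21. In the alveolar macrophage list, 5 of 13 rose and 1 fell (median 0.007): the integrin Itgax, which dendritic cells share, rose by 1.67 ± 0.18 and the protease Ctsk by 1.53 ± 0.23, whereas the scavenger receptor Marco and the lineage factor Pparg did not pass (adjusted p = 0.7 and 0.603).

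Most MHC class II genes were higher. Of 11 MHC class II genes, 8 rose and 3 did not pass (median 0.28). H2-Ab1 lay between 13.01 and 13.33 (median 13.20) in sensitized and between 12.76 and 12.96 (median 12.79) in naive mice, a difference of 0.35 ± 0.059 (limma adjusted p = 1.15e-06). The groups did not overlap, although the difference was below 1 unit. The cathepsin Ctss, which trims the invariant chain, rose by 0.46 ± 0.064 and the peptide exchange chain H2-DMa by 0.44 ± 0.095. Of 12 genes of MHC class I and the immunoproteasome, 2 rose and 10 did not pass (median 0.13), near the background, and 7 rose with array weights. Of 11 costimulatory and checkpoint ligands, 4 rose, 2 fell and 5 did not pass (median 0.25). Among 13 dendritic cell genes, 5 rose and 1 fell (median 0.27), with the transcription factor Batf3 higher by 1.08 ± 0.23, the maturation marker Cd83 by 0.86 ± 0.15 and the costimulator Cd86 by 0.63 ± 0.14.

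Part of the T cell genes were higher, while the share that fell was near the background. Of 17 measured T cell genes, 6 rose, 3 fell and 8 did not pass (median 0.20). Icos, the inducible costimulator, stood between 9.87 and 10.42 (median 10.15) in sensitized and between 8.55 and 9.07 (median 8.75) in naive mice, a difference of 1.34 ± 0.20 (limma adjusted p = 5.02e-08). Ctla4, the inhibitory receptor, rose by 1.18 ± 0.23 and Cd4 by 0.59 ± 0.11, each with every sensitized mouse above every naive mouse. The difference of Cd3e, a chain of the T cell receptor complex, was 0.14 ± 0.11 (adjusted p = 0.348). Cd8a and Cd8b1, the co-receptor chains of cytotoxic T cells, fell by 0.42 ± 0.16 and 0.43 ± 0.14 (adjusted p = 0.0382 and 0.0105). Without sensitized replicate 1, 0 of the 3 T cell genes that fell passed, while the call of Cd8a was lost without any of 7 other mice too. The adjusted p of Cd8b1 was 0.0672 without that mouse and 0.0525 in the 48 h arrays alone, and that of Cd8a was 0.135 with its most variable probe set. Of 14 T helper lineage genes, 7 rose and 7 did not pass (median 0.18). The exhaustion and follicular marker Pdcd1 rose by 1.76 ± 0.22, the follicular helper cytokine Il21 by 1.37 ± 0.31 and the regulatory T cell factor Foxp3 by 0.41 ± 0.11. Gata3, the T helper 2 factor that epithelium also expresses, and Ifng, the T helper 1 cytokine, did not pass (adjusted p = 0.647 and 0.913). Of 11 natural killer cell genes, 3 fell and 1 rose (median -0.22): the receptor Ncr1 fell by 0.57 ± 0.20 and the granzyme Gzma by 0.46 ± 0.16, whereas Klrg1, a receptor of effector T cells and innate lymphoid cells as well, rose by 0.67 ± 0.14. The adjusted p of Ncr1 was 0.0571 without sensitized replicate 1, and 1 of the 3 natural killer cell genes that fell then passed.

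Plasma cell genes rose, while B cell genes did not pass. Of 15 plasma cell genes, 12 rose, 1 fell and 2 did not pass (median 0.88). Of 8 B cell genes, 0 passed with limma, 0 had an unadjusted p under 0.05, and 0 passed in the 48 h arrays alone (median 0.004). Ighm, the IgM heavy chain, lay between 13.93 and 14.38 (median 14.30) in sensitized and between 9.93 and 11.05 (median 10.37) in naive mice, a difference of 3.74 ± 0.52 (adjusted p = 5.27e-09). Immunoglobulin probe sets can pick up signal of related chains, so the class is uncertain. Jchain, which joins IgM and IgA into polymers, ranged from 12.61 to 13.56 (median 13.42) against 10.66 to 11.10 (median 10.86), a difference of 2.49 ± 0.26 (adjusted p = 2.9e-13). Neither gene's groups overlapped, and sensitized replicate 7 was lowest in Jchain. The antibody folding cofactor Mzb1 rose by 2.28 ± 0.27, Igha by 1.50 ± 0.17, Derl3, a component of endoplasmic reticulum (ER) associated degradation, by 1.69 ± 0.22, the plasma cell factor Irf4 by 0.98 ± 0.24 and the survival receptor Tnfrsf17 by 0.88 ± 0.19. Xbp1, the factor that enlarges the secretory pathway, rose by 0.36 ± 0.077. Sdc1, a plasma cell surface proteoglycan that epithelium also carries, fell by 0.16 ± 0.041. The polymeric immunoglobulin receptor Pigr, the epithelial carrier of IgA and IgM into the airway, rose by 2.34 ± 0.21, from 9.46 to 10.49 in naive to 11.93 to 12.66 in sensitized mice. Of 17 ER chaperones, 8 rose and 9 did not pass (median 0.17), with Sdf2l1 higher by 0.83 ± 0.18, the disulfide isomerase Pdia4 by 0.58 ± 0.13 and Creld2 by 0.54 ± 0.13. The main ER chaperone Hspa5 did not pass (adjusted p = 0.0644), though it did without naive replicate 7 (adjusted p = 0.0302) and without sensitized replicates 1 or 7 (adjusted p = 0.0388 and 0.0405).

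Cell division genes rose together. All 24 measured cell cycle genes passed as higher, with a median difference of 1.10, and the mean over the list was 9.03 to 9.79 in sensitized mice against 8.15 to 8.34 in naive mice. In the 48 h arrays alone 22 passed, all but Mcm7 and Tyms (adjusted p = 0.0911 and 0.0595). Mki67 was not analysed here. Hmmr, a spindle protein, lay between 9.48 and 10.57 (median 9.86) in sensitized and between 7.62 and 8.02 (median 7.75) in naive mice, a difference of 2.12 ± 0.25 (limma adjusted p = 2.77e-11). The 2 groups did not overlap. The kinesin Kif2c rose by 1.96 ± 0.21, the chromosomal passenger protein Cdca8 by 1.87 ± 0.20, the centromere motor Cenpe by 1.81 ± 0.18 and the mitotic kinase Cdk1 by 1.60 ± 0.22. The replication helicase subunit Mcm7 showed the smallest difference of the list, 0.24 ± 0.087 (adjusted p = 0.0208), which did not pass without naive replicate 4 or sensitized replicate 2 or 6 (adjusted p = 0.0791, 0.0663 and 0.0592).

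Promoters of the cell cycle genes were read for the letters TTTGAA, the cell cycle genes homology region that many genes of late division carry near their start, on both strands in the 250 bases before the start site. The sequences come from RefSeq on the build GRCm38.p6, and 19 of the 24 genes had a promoter in the table. The letters occurred in 5 of those 19 (Ccnb2, Cdk1, Kif11, Kif2c and Mcm2), against 18.3% of all 27025 genes with a promoter and 12.9% of the 10459 such genes tested here. A gene was counted if any of its promoters held the letters. Kif2c (chr4:117178773-117179022, minus strand, difference 1.96) is shown as the matching gene with the largest difference and Cdk1 (chr10:69352913-69353162, minus strand, difference 1.60) as the gene with a pair of matches. Both are written in the direction of transcription with the matching letters, on either strand, in capitals. The match begins at position -103 from the start site in Kif2c and at -71 and -15 in Cdk1.
Kif2c: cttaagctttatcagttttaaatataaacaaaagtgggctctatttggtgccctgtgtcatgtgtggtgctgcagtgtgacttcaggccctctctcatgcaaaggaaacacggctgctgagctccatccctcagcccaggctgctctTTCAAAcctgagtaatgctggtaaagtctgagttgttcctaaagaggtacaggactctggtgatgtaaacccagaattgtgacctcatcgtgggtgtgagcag
Cdk1: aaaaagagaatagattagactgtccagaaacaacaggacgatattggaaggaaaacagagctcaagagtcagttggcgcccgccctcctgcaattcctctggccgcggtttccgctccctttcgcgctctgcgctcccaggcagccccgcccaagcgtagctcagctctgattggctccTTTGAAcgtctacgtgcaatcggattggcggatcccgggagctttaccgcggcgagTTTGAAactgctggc
A match is a description of these letters and not evidence of binding.

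Innate inflammatory genes were mixed. Of 18 acute phase and inflammatory cytokine genes, 5 rose and 1 fell (median 0.40), and 8 rose in the 48 h arrays alone. Serum amyloid Saa3 stood between 12.60 and 13.42 (median 13.08) in sensitized and between 10.04 and 12.28 (median 10.80) in naive mice, a difference of 2.17 ± 0.44 (limma adjusted p = 4.27e-05). Its groups did not overlap. Il6 rose by 1.60 ± 0.58, the siderophore binder Lcn2 by 0.90 ± 0.14 and the prostaglandin synthase Ptgs2 by 0.81 ± 0.18, whereas Il1b and Tnf did not pass (adjusted p = 0.931 and 0.92). Of 21 interferon-stimulated genes, 1 rose and 2 fell (median -0.03), below the background in both directions, and 3 rose and 3 fell in the 48 h arrays alone: the antiviral GTPase Mx1 rose by 0.84 ± 0.21 and Ifit2 fell by 0.54 ± 0.11. Of 11 complement genes, 7 rose and 2 fell (median 0.41), among them the protease Cfi, higher by 1.45 ± 0.21, and the anaphylatoxin receptor C3ar1, higher by 1.14 ± 0.25. Of 20 genes of eicosanoid synthesis and reception, 10 rose and 3 fell (median 0.24). The epidermal lipoxygenase Alox12e rose by 1.66 ± 0.16, from 7.06 to 7.16 in naive to 8.45 to 9.04 in sensitized mice, thromboxane synthase Tbxas1 by 1.11 ± 0.15 and prostaglandin E synthase Ptges by 0.78 ± 0.15. Of the enzymes and transporters that handle arginine, Slc7a2 rose by 0.86 ± 0.13 and Arg2 by 0.66 ± 0.15, while Nos2 did not pass (adjusted p = 0.336).

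Matrix proteases, collagens and matricellular proteins were split. Of 17 metalloproteinases and inhibitors, 7 rose and 4 fell (median -0.01). Mmp12, the macrophage elastase, lay between 12.22 and 13.21 (median 12.88) in sensitized and between 8.93 and 10.01 (median 9.59) in naive mice, a difference of 3.35 ± 0.41 (limma adjusted p = 9.88e-11). Every sensitized mouse was more than 2 units above every naive mouse. The collagenase Mmp13 rose by 1.84 ± 0.47, Timp1 by 1.52 ± 0.35 and the aggrecanase Adamts4 by 1.38 ± 0.45. Of 20 matricellular and collagen genes, 4 rose, near the background, and 5 fell, somewhat above it (median -0.002). The number that rose was 2 without any of naive replicates 5 and 6 and sensitized replicates 2 and 6. The matricellular protein Thbs1 rose by 0.95 ± 0.29, and Col12a1, a collagen of the fibril surface, fell by 0.67 ± 0.15, with every sensitized mouse below every naive mouse. Tenascin C (Tnc) and periostin (Postn), matrix proteins known from asthmatic airways, did not pass (adjusted p = 0.136 and 0.82), and Tnc passed in the 48 h arrays alone (adjusted p = 0.00264).

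Fabp1 and Pon1 showed the largest decreases among the genes that passed. Fabp1, a fatty acid binding protein best known from liver and gut, lay between 7.02 and 9.34 (median 8.27) in sensitized and between 10.44 and 11.55 (median 10.90) in naive mice, a difference of -2.69 ± 0.35 (limma adjusted p = 5.33e-10). Pon1, a lactonase carried on lipoproteins, ranged from 8.76 to 10.11 (median 9.36) against 11.51 to 12.05 (median 11.88), a difference of -2.39 ± 0.27 (adjusted p = 7.95e-12). Every sensitized mouse was below every naive mouse in both genes, and the sensitized mice spread over more than a unit in each. Of 23 xenobiotic and detoxification enzymes, 7 fell and 4 rose (median -0.14), and 11 fell in the 48 h arrays alone. The cytochrome P450 Cyp2e1 fell by 1.32 ± 0.42 (adjusted p = 0.01) and the carboxylesterase Ces1g by 1.03 ± 0.21, while the glutathione transferase Gsto1 rose by 1.15 ± 0.11 and the alcohol dehydrogenase Adh7 by 0.91 ± 0.28. Cyp2e1 is also high in fat, and the mean over 9 adipocyte genes ran from 7.07 to 9.04 in sensitized and from 7.99 to 9.53 in naive mice. The part of fat tissue in that difference was not tested. The other genes among the 12 with the lowest differences included Grp, gastrin-releasing peptide of neuroendocrine cells, which fell by 1.21 ± 0.19, the asialoglycoprotein receptor Asgr1, which fell by 1.20 ± 0.21, Krtap17-1, which fell by 1.58 ± 0.28, Glb1l3, which fell by 1.06 ± 0.23, and Gdpd2, which fell by 0.99 ± 0.16.

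**Figure D4:**
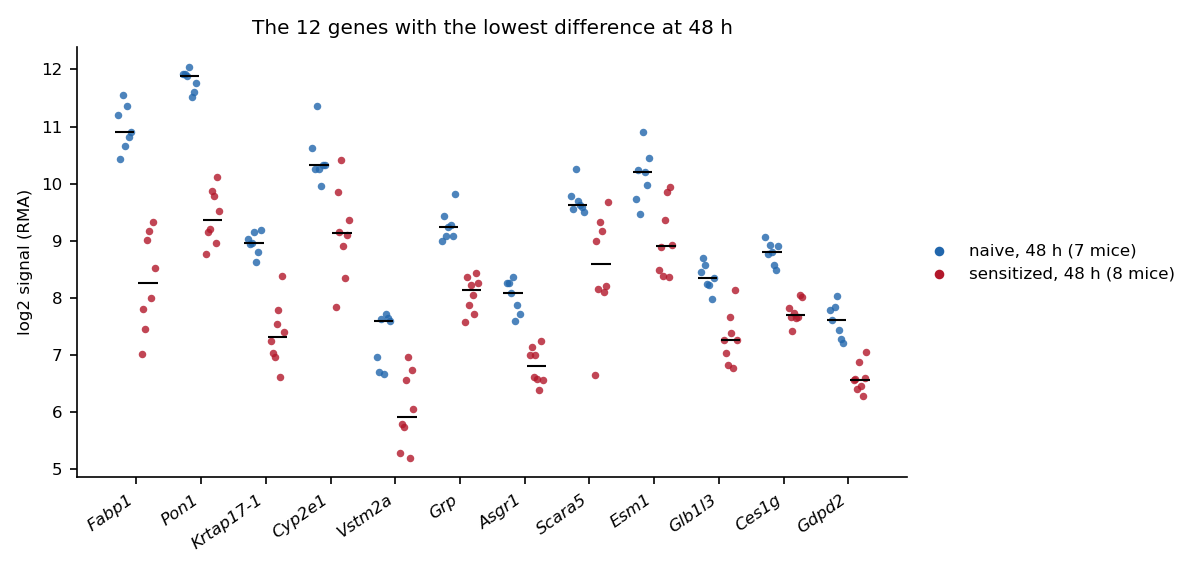
Log2 signal of the 12 genes with the lowest difference at 48 h among the genes that passed. Each mouse is 1 dot, blue for the 7 naive and red for the 8 sensitized mice, with a black line at each median. The groups do not overlap in Fabp1, Pon1, Krtap17-1, Grp, Asgr1, Ces1g and Gdpd2, and overlap in the other 5 genes, among them Scara5, where 1 sensitized mouse stands at 6.64.

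Most fibroblast genes were lower. Of 17 fibroblast genes, 11 fell and 1 rose (median -0.29). Dcn, the proteoglycan decorin, lay between 9.72 and 11.90 (median 11.23) in sensitized and between 11.88 and 12.43 (median 12.01) in naive mice, a difference of -0.89 ± 0.19 (limma adjusted p = 0.000128). In 7 of 8 sensitized mice it was below all naive mice. Scara5, a scavenger receptor of adventitial fibroblasts, fell by 1.18 ± 0.34, Vstm2a, a secreted protein of the immunoglobulin family, by 1.23 ± 0.28, and the signalling ligand Wnt5a rose by 0.52 ± 0.13. Sensitized replicate 1 had the lowest fibroblast mean, 10.15 against 10.47 to 10.80 in the other sensitized and 10.91 to 11.11 in naive mice, and also the highest actin 3′ to 5′ difference. Without it 7 fibroblast genes fell, and the adjusted p was 0.00247 for Dcn and 0.0312 for Scara5. The part of RNA quality in these values was not tested. Of 24 endothelial genes, 11 fell and 1 rose (4 in the 48 h arrays alone, median -0.17). Kdr, the main VEGF receptor, ranged from 11.51 to 11.95 (median 11.80) in sensitized and from 12.04 to 12.23 (median 12.14) in naive mice, a difference of -0.35 ± 0.081 (adjusted p = 0.000355) with no overlap. Esm1, a secreted product of tip cells, fell by 1.11 ± 0.32, Emcn by 0.44 ± 0.14 and the junction protein Cdh5 by 0.20 ± 0.055. P-selectin (Selp), which captures rolling leukocytes, rose by 0.96 ± 0.26, whereas the adhesion molecules Vcam1 and Icam1 did not pass (adjusted p = 0.0713 and 0.589), and Vcam1 passed in the 48 h arrays alone (adjusted p = 0.00173). Of 14 alveolar type I genes, 6 fell and 8 did not pass (median -0.14). Clic3, a chloride channel protein, fell by 0.36 ± 0.067, the water channel Aqp5 by 0.30 ± 0.067 and Ager by 0.12 ± 0.032, decreases of well below 1 unit. Arrays were normalized to a common distribution of signal, so a gene can fall relative to the total when others rise.

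Airway and alveolar epithelium and muscle changed gene by gene. Of 13 club cell genes, 4 rose and 2 fell (median 0.04). Scgb1a1, the defining club cell secretoglobin, did not pass (0.035 ± 0.026) and stood near the top of the array's range in every mouse. Scgb3a2 fell by 0.41 ± 0.11 and the cytochrome P450 Cyp2f2 by 0.28 ± 0.073. Of 17 ciliated cell genes, 8 rose and 1 fell (median 0.28), and 4 rose without sensitized replicate 1 or without naive replicate 5. The dynein chain Dnaic2 rose by 0.73 ± 0.20, Rsph1 of the radial spoke by 0.54 ± 0.13 and the master regulator Foxj1 by 0.47 ± 0.16 (limma adjusted p = 0.0176), which did not pass without sensitized replicate 1 (adjusted p = 0.066) or naive replicate 5 (adjusted p = 0.067). Of 13 alveolar type II genes, 5 rose (3 in the 48 h arrays alone) and 3 fell (median 0.004). The surfactant genes went apart: Sftpd, a collectin, rose by 0.28 ± 0.038 and Sftpb, which spreads the lipid film, fell by 0.22 ± 0.057, each without overlap of the groups, and Sftpc did not pass (adjusted p = 0.96). Of 11 smooth muscle genes, 5 rose and 1 fell (median 0.17). The smooth muscle coactivator Myocd rose by 0.81 ± 0.14, the actins Actg2 and Acta2 by 0.53 ± 0.13 and 0.36 ± 0.061, and sensitized replicate 1 was the lowest sensitized mouse in all 3 and below every naive mouse in Actg2. The squamous and basal cell genes Sprr1a and Trp63 rose by 1.52 ± 0.56 and 1.04 ± 0.34. Without sensitized replicate 8, which had the high squamous epithelium mean, the adjusted p was 0.125 for Sprr1a and 0.0483 for Trp63.

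Genes of cholesterol synthesis were higher. Of 10 genes of cholesterol synthesis, 7 rose and 3 did not pass (median 0.27). Mvd, a mevalonate pathway decarboxylase, lay between 9.74 and 10.43 (median 10.06) in sensitized and between 9.19 and 9.52 (median 9.34) in naive mice, a difference of 0.69 ± 0.11 (limma adjusted p = 2.53e-07) with no overlap, and the isomerase Idi1 rose by 0.61 ± 0.11. Of 15 circadian clock genes, 3 fell and 1 rose (median -0.15), near the background. Nr1d1, the clock repressor, fell by 0.77 ± 0.16 (adjusted p = 9.95e-05). The metallothionein Mt2, which glucocorticoids and metals induce, rose by 0.81 ± 0.24, in a list of 12 glucocorticoid-responsive genes of which 3 rose and 1 fell (median -0.04).

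The 48 h comparison was set beside those at 0, 24 and 72 h. Mice of the different times are different animals, so the differences share no samples. Their tests do share 1 estimate of the spread per gene, so the calls at different times are not independent. At 24 h 6230 genes passed, at 72 h 6335 and at 0 h 3457. Of the 4579 genes called at 48 h, 3228 were called in the same direction at 24 h (70.5% of the 48 h calls and 51.8% of the 24 h calls), 3685 at 72 h (80.5% and 58.2%) and 2265 at 0 h (49.5% and 65.5%). The difference between the arms was then compared directly between times. In the limma fit over all arrays without weights, 0 genes (0%) passed for a change since 0 h, and 1438 had an unadjusted p under 0.05. With array weights 1299 genes passed, and 0 passed in a fit of the 0 and 48 h arrays alone. Whether the difference between the arms had moved since 0 h therefore depended on the fit, and a count of 0 does not show equal differences. Muc5ac differed by 3.46 ± 0.31 at 0 h and 4.19 ± 0.32 at 48 h (adjusted p of the change = 0.558).

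Against 24 h, 224 genes (1.72%) passed, 153 (1.17%) with a smaller and 71 (0.544%) with a larger difference at 48 h, where smaller and larger refer to the signed value. Among the genes that passed, the bone matrix protein Dmp1 had the largest drop, from 3.60 ± 0.44 at 24 h to 1.16 ± 0.42 at 48 h. The change was -2.45 ± 0.60 (limma adjusted p = 0.0172). The 48 h difference of Dmp1 itself passed (adjusted p = 0.0239), but not without sensitized replicate 3 (adjusted p = 0.0529). Ccl24 went from 2.75 ± 0.37 to 0.98 ± 0.35 (adjusted p of the change = 0.0474), while the change of Ccl11 did not pass (adjusted p = 0.402). Epx went from 1.51 ± 0.20 to 0.47 ± 0.19 (adjusted p of the change = 0.0343). The haem oxygenase Hmox1, a stress gene of macrophages, stood 1.37 ± 0.17 higher at 24 h and differed by 0.14 ± 0.17 at 48 h (adjusted p of the change = 0.00147). The acute phase gene Orm2 followed the same course, from 2.05 ± 0.27 to 0.41 ± 0.26 (adjusted p = 0.0134), and its 48 h difference passed in the 48 h arrays alone (adjusted p = 0.00585). The retinal dehydrogenase Aldh1a3 changed by -2.11 ± 0.61 and the homeobox gene Msx3 by -1.43 ± 0.40 (adjusted p = 0.0478 and 0.0434). Of the 3 probe sets of Aldh1a3, the one used differed between the arms by 1.69 at 48 h. The others differed by -0.10 and -0.03. In the other direction, the progesterone receptor Pgr was -0.82 ± 0.17 at 24 h and 0.21 ± 0.16 at 48 h (adjusted p of the change = 0.0134), and the secreted peptide Tafa4 -0.18 ± 0.14 and 0.76 ± 0.13 (adjusted p = 0.00273). AI593442, Lrp2bp, Cldn23 and Adamtsl2 complete the 6 largest increases that passed, with changes of 1.03, 0.89, 0.88 and 0.78. Many of these calls lay near the threshold: those of Ccl24, Aldh1a3 and AI593442 were each lost when any of 9 mice was left out (adjusted p up to 0.087, 0.0838 and 0.0875, all without sensitized replicate 7), that of Msx3 when any of 8 was, and that of Epx without naive replicate 1 or sensitized replicates 1, 4 or 7 (up to 0.0755) and in a fit of the 24 and 48 h arrays alone (0.0628). Leaving out sensitized replicate 7 gave 111 genes, and leaving out sensitized replicate 6 gave 411.

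Against 72 h, 14 genes (0.107%) passed, 11 (0.0843%) with a smaller and 3 (0.023%) with a larger difference at 48 h. Of those 11, 3 belonged to the plasma cell list and 1 to the ER chaperones. Derl3 differed between the arms by 1.69 ± 0.22 at 48 h and 3.08 ± 0.21 at 72 h, a change of -1.39 ± 0.31 (limma adjusted p = 0.02). Tnfrsf17 went from 0.88 ± 0.19 to 2.07 ± 0.18 (adjusted p = 0.0195), and Slamf7, a surface receptor of plasma cells and activated lymphocytes, from 0.59 ± 0.16 to 1.74 ± 0.15 (adjusted p = 0.0066). Pdia4 went from 0.58 ± 0.13 to 1.40 ± 0.12 (adjusted p = 0.0175). The change of Jchain did not pass, at 2.49 ± 0.26 and 2.63 ± 0.26 (adjusted p = 0.928). The lymphocyte adaptor Lax1, the transporter Slc16a6 and the protease Prss16 changed by -1.14, -1.04 and -1.01, calls that were lost without any of 5, 9 and 2 mice. The 3 genes with the larger difference at 48 h were the chromatin remodelling subunit Ss18l1, Phf13 and the serum response factor Srf, with changes of 0.38, 0.37 and 0.33, and the arms did not differ past the threshold at 48 h itself in these genes (adjusted p = 0.763, 0.632 and 0.321). With its most variable probe set the change of Srf was 0.18 (adjusted p = 0.509) and its 48 h difference passed (adjusted p = 0.00677). In a fit of the 48 and 72 h arrays alone the changes of Derl3, Slc16a6, Prss16, Ss18l1 and Srf did not pass (adjusted p = 0.0646, 0.0691, 0.0781, 0.0822 and 0.0691). Without sensitized replicate 7, which had the lowest plasma cell mean among the sensitized mice (10.60 against 10.91 or more), the adjusted p was 0.0754 for Derl3, 0.0666 for Tnfrsf17, 0.0609 for Pdia4 and 0.0263 for Slamf7. The count without that mouse was 4, and it was 58 without sensitized replicate 2.

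**Figure D5:**
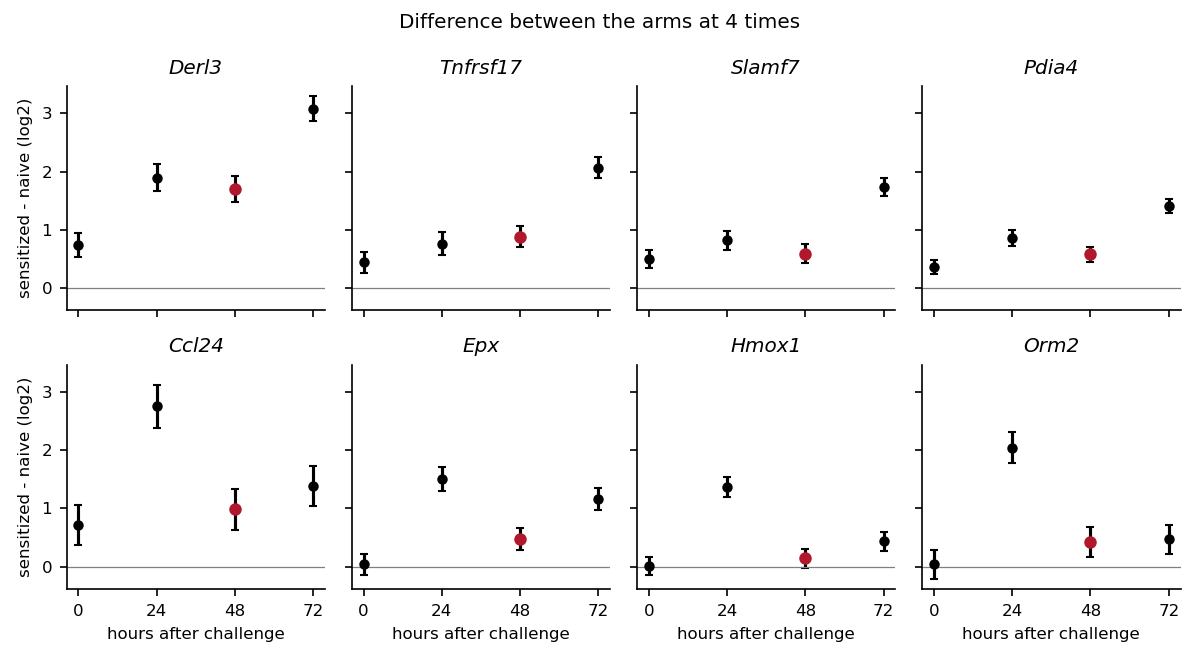
Difference between sensitized and naive mice (log2, y axis) at 0, 24, 48 and 72 h after challenge (x axis) for 8 genes, with the SE of the model as bars and the 48 h value in red. In the upper row Derl3, Tnfrsf17, Slamf7 and Pdia4 stand higher at 72 h than at 48 h, and in the lower row Ccl24, Epx, Hmox1 and Orm2 stand higher at 24 h than at 48 h.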

How the data were processed

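Total RNA of whole lung was hybridised to 1 array per animal, per the labels. The deposited values are log2 signals made by the authors with RMA (named in the submitters' processing notes, version not given in the sources used here), a method that brings all arrays to a common distribution. Of 25697 probe sets, 22478 had 1 gene symbol in GEO's platform annotation, 259 had several and 2950 had none. Where a gene had several probe sets, the brightest on average was used, which left 13053 genes.

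Groups came from the labels. limma 3.58.1 in R 4.3.3 fitted 1 mean per group over all 123 arrays (107 residual degrees of freedom), and p-values were adjusted by Benjamini-Hochberg over all genes, with 0.05 as the threshold. Differences are sensitized minus naive, and contrasts compared them between times. Simulated data with 200 changed genes were tested, with normal noise of the same spread per gene in all 16 groups. The unequal spread of the mice was not part of that simulation. In the 48 h comparison of those data, 86.6%, 98.5% and 100% of changes of 0.5, 1 and 2 log2 units were recovered. Of the calls in those data, 3.06% were false. The share of false calls among the genes called in the mice was not tested. Alternatives were a fit of the compared times alone, array weights, the most variable probe set, genes below the 0.25 quantile of mean signal left out, array medians subtracted, a trended and robust variance, 9 arrays high in neighbouring tissue genes left out, and each mouse left out.

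Named genes were the 12 highest and the 12 lowest differences at 48 h, 4 members of each gene list with any other member beside its list's count, a panel of known genes, the 6 largest changes in each direction between times and the 5 genes with the largest SD in sensitized mice. The highest and lowest differences and the largest changes were taken from genes past the threshold. Other promoter motifs were searched for other lists and are not reported here. The comparison and the 56 gene lists were chosen with earlier results of these data known. Figures were drawn with matplotlib 3.10.9.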

Additional observations from a re-analysis of the deposited data

Results flagged for a closer look

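Within each arm at 48 h, the highest or lowest mouse was compared with its arm by Dixon's gap test over the named genes and the list means. Chance alone marks about 1 in 20 groups, and 49 of 520 values had such a mouse. The values include the genes named for the largest SD among sensitized mice, and list means beside their own members. The 49 is therefore a count only and is not to be read against 1 in 20. Values are log2 signals.

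Sensitized replicate 8 stood far above the other sensitized mice in the epidermal and skeletal muscle genes Lce3f (14.16), Krt13 (13.71), Krtdap (13.44), Myh1 (12.64), 2310011E23Rik (12.15) and Sprr1a (11.17), in the squamous epithelium mean (11.80) and in the skeletal muscle mean (11.98). It was also high in Cxcl10 (10.01), Chit1 (7.61) and Orm2 (6.13). Sensitized replicate 1 was low in Acta2 (13.04), Actg2 (10.44), Emcn (10.76) and the means of the smooth muscle (10.87), matricellular and collagen (11.78) and lipid handling (11.59) lists, and high in Srf (10.94). Sensitized replicate 5 was low in the mucus genes Clca1 (13.99), Muc5b (11.71) and Capn9 (8.99) and high in the glucocorticoid-responsive mean (12.12). Sensitized replicate 7 was low in Jchain (12.61) and sensitized replicate 2 in Scgb1a1 (14.47).

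Naive replicate 3 was the high naive mouse in 9 genes, some of them genes that were higher in sensitized mice: Ccl8 (9.55), Cxcl9 (8.16), Bpifb1 (11.73), Ctsk (9.99), Mcpt1 (4.66), Cpa3 (8.40), Myocd (9.40), Scara5 (10.25) and Trp63 (7.71). It was high in the alveolar macrophage (10.40), adipocyte (9.53) and lipid handling (12.12) means too. Naive replicate 7 was high in Cd83 (11.64), Il21 (4.75) and Pdcd1 (7.55), and naive replicate 4 in Alox15 (10.35), Selp (10.14) and the eosinophil mean (7.26), with a low mean of costimulatory and checkpoint ligands (9.31). Naive replicate 1 was high in Capn9 (6.16) and Krt13 (6.28) and low in Postn (13.09), naive replicate 2 high in Tnc (10.32), naive replicate 5 low in Sftpb (13.56), and naive replicate 6 high in the mean of the 2 measured thyroid and parathyroid genes (7.87).

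The difference between the arms changed between times in 224 genes from 24 to 48 h and in 14 genes between 48 and 72 h, by a test of the change itself with limma. From 24 to 48 h the changes of the named genes were -2.45 for Dmp1, -2.11 for Aldh1a3, -1.77 for Ccl24, -1.63 for Orm2, -1.43 for Msx3, -1.23 for Hmox1 and -1.03 for Epx, and 1.03 for AI593442, 1.02 for Pgr, 0.94 for Tafa4, 0.89 for Lrp2bp, 0.88 for Cldn23, 0.78 for Adamtsl2 and 0.27 for Phf13. The value at 48 h less that at 72 h was -1.39 for Derl3, -1.19 for Tnfrsf17, -1.15 for Slamf7, -1.14 for Lax1, -1.04 for Slc16a6, -1.01 for Prss16 and -0.83 for Pdia4, and 0.38 for Ss18l1, 0.37 for Phf13 and 0.33 for Srf.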

How the results depend on the processing

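The number of genes that differed at 48 h was 4579, between 3984 and 4948 with any mouse left out, and 296 when a difference of at least 1 log2 unit was required as well. It was 6027 with array weights, 5235 with array medians subtracted and 3592 without genes below the 0.25 quantile of mean signal. The count of changes against 24 h, 224, was 1929 with array weights, 752 in a fit of the 24 and 48 h arrays only, 555 without the 9 arrays high in genes of neighbouring tissues, and between 111 and 411 with any mouse left out. It lay beyond 1.5 times its value without naive replicates 1, 2, 4 or 6 (138, 145, 375 and 143) and without sensitized replicates 2, 4, 6 or 7 (388, 141, 411 and 111). The count against 72 h, 14, was 574 with array weights, 24 with array medians subtracted, 9 without genes below the 0.25 quantile of mean signal, 4 to 58 with any mouse left out, and 39, 58, 29 and 4 without naive replicate 7 and sensitized replicates 2, 6 and 7. The count against 0 h, 0, was 1299 with array weights, 8 with array medians subtracted and at most 5 with any mouse left out. The cause was not tested. The actin difference lay between -0.0243 and 0.0613 with any mouse left out. Over 203 named genes and their 4391 values under other settings, 4310 kept their side of the threshold, 64 lost the call and 16 gained it. The 4310 include any value that changed direction while passing in neither fit. The remaining 1 reversed with a call: Krt13 differed by -0.18 (limma adjusted p = 0.0459) without the neighbouring tissue arrays, sensitized replicate 8 among them. Of 514 values of the 24 named changes between times, 68 lost the call and 446 kept it. Of 2464 counts of list members that rose or fell, 202 lay beyond 1.5 times the value given. No paired analysis was possible because the labels give each mouse its own animal number and no replicate number shared between the groups. Arrays limit precision by their number: 8 and 7 mice.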
